A study of Mus musculus with 10 samples.

Results

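Imprinted genes are transcribed mainly from the allele inherited from a single parent, and the set described here holds 10 classical imprinted genes of the mouse: Rasgrf1, H19, Igf2, Dlk1, Meg3, Peg3, Peg10, Cdkn1c, Grb10 and Mest. They were picked by name from a table of 35288 genes measured in small cell lung cancer of the mouse, and 8 of the 10 names had a row. H19 and Meg3 were not analysed here. All 8 genes had a mean of at least 1 TPM, a measure of transcript abundance scaled for length and to the same total in each library, over the 10 libraries, the level above which a gene was tested, as did 15503 genes in all. Dlk1 reached it through 1 library alone, and its level was at least 1 TPM in that library only. Rasgrf1 was chosen because its values differed between the genotypes in lung tumors and between tissues in Nfib-floxed mice, so those differences and their interaction are given for it as descriptions, with no test.

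The tumors came from RPR2 mice, a name used in this field for a model in which Rb1, Trp53 and Rbl2 are deleted together in lung cells. All 4 groups carried that background, and 2 of them carried in addition floxed Nfib alleles (RPR2;Nfibf/f, called Nfib-floxed here). Nfib codes for nuclear factor I/B, a transcription factor that is often amplified in this tumor. The groups were RPR2 lung tumors (mice JHK1373, JHK1394 and JHK1548), Nfib-floxed lung tumors (JHK1398, JHK1399 and JHK997), RPR2 liver metastases (JHK1373 and JHK1394) and Nfib-floxed liver metastases (JHK1398 and JHK1399). Each metastasis therefore had a lung tumor of the same mouse beside it. The labels used here state neither the age of the mice nor the promoter or virus that delivered Cre. RNA of whole dissected tumors was measured, so fewer cells of a type and less RNA per cell cannot be told apart, and TPM does not separate the parental alleles.

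Imprinted genes are marked in the germ line by DNA methylation at control regions, and the marks are kept after fertilization. Many of the genes transcribed from the paternal copy promote fetal growth and many transcribed from the maternal copy restrain it. Among the measured genes, Igf2, Dlk1, Peg3, Peg10, Mest and Rasgrf1 are known as paternally expressed, and Cdkn1c and Grb10 as maternally expressed in most tissues. Several are silenced after birth in most organs and are found again in tumors.

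The libraries were not alike in their cells. The targeted gene itself, Nfib, stood at 28.3 to 118 TPM in the RPR2 lung tumors and 26.5 to 38.6 TPM in the Nfib-floxed ones, and at 62.8 and 643 TPM in the RPR2 metastases against 46.1 and 41.3 TPM. A level summed over the whole gene also counts exons outside a floxed part. Neuroendocrine markers (12 of 12 present, none at 0) summed to 2712 to 75547 TPM, so the labelled tumor type was seen in every library. The 15 hepatocyte markers, none at 0, summed to 9242 and 9614 TPM in the RPR2 metastases. In the Nfib-floxed metastases they summed to 104 TPM in JHK1398, within the 96.9 to 1268 TPM of the lung tumors, and to 2743 TPM in JHK1399. The 7 club-cell markers, none at 0, reached 60574 TPM in the lung tumor of JHK1394 and 55989 TPM in that of JHK1398. For some of the results that turn on these libraries, values without them are also given.

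The promoter windows of RefSeq (build GRCm38.p6) held 12 windows for 6 of the genes: Rasgrf1, Igf2, Dlk1, Peg3, Grb10 and Mest. The sequences below are the 250 bases before the annotated start, 5′ to 3′ on the strand of the gene, for Rasgrf1, for Peg3, and for the most upstream start of Igf2. Rasgrf1 and Igf2 are shown because the results turn on them, and Peg3 because its window held the most copies of TTGGC, the short motif bound by nuclear factor I proteins. Capitals mark TTGGC or its reverse complement GCCAA.
Rasgrf1, chr9:89909525-89909774, plus strand: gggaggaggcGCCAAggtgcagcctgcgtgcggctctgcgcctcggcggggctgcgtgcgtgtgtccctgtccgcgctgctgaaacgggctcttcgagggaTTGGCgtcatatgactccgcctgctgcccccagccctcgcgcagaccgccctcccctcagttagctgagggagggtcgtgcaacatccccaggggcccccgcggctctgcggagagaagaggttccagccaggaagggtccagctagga
Peg3, chr7:6730420-6730669, minus strand: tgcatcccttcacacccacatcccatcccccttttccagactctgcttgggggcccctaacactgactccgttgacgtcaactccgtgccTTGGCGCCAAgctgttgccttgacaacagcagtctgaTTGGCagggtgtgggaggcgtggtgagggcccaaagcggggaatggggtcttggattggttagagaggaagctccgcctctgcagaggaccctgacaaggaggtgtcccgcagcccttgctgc
Igf2, chr7:142666817-142667066, minus strand: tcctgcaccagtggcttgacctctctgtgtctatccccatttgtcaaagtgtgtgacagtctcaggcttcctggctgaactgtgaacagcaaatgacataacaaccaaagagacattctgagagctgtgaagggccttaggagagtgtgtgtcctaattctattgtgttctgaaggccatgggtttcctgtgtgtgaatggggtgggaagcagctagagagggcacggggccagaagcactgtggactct
TTGGC, on either strand, was found in 4 of the 12 windows: that of Rasgrf1 with 2 copies, that of Peg3 with 3, and both of Grb10 with 1 each. Over all 32851 windows of the same length, 41.5% held it. The nuclear factor I palindrome, which holds a TTGGC on each strand around a spacer of 5 bases and so overlaps the shorter motif, was in none of the 12 windows and in 12 of all windows. The Rasgrf1 window was rich in CpG, the dinucleotide that carries imprinting methylation, with 21 copies against a median of 6 over all windows, and its GC content was 69.2%. The 4 Igf2 windows held 1, 10, 22 and 6 copies. A motif match describes the letters of the window and no binding was measured.

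Rasgrf1 (ENSMUSG00000032356, GRCm38 chr9:89909908-90026977, plus strand) codes for an exchange factor that loads Ras with GTP after calcium signals and is best known from neurons. In RPR2 lung tumors its level was 2.88 TPM in JHK1373, 7.09 TPM in JHK1394 and 6.76 TPM in JHK1548. The Nfib-floxed lung tumors stood higher, with 30.9 TPM in JHK1398, 48.4 TPM in JHK1399 and 106 TPM in JHK997. Every Nfib-floxed lung tumor lay above every RPR2 lung tumor, with group means of 61.6 ± 39.1 TPM (SD, n = 3) and 5.58 ± 2.34 TPM (SD, n = 3), an 11.1-fold difference of means. On the log2(TPM + 1) scale, where all differences below stand, the lung tumors differed by 3.14. The Nfib-floxed lung tumor with the lowest Rasgrf1 was the club-rich JHK1398.

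In the liver metastases the level of Rasgrf1 was low in every mouse. It was 0.212 and 0.298 TPM in the RPR2 metastases of JHK1373 and JHK1394, and 0.122 and 3.06 TPM in the Nfib-floxed metastases of JHK1398 and JHK1399. The genotypes overlapped there, with a difference of 0.77 ± 0.73 (SE), a limma adjusted p of 0.799 and a 95% interval of -0.84 to 2.38. Leaving out 1 library at a time moved this difference between -0.16 and 1.69. The groups of metastases hold 2 libraries each, so only a wide interval could be had. The Nfib-floxed metastases also belong to a comparison that chose Rasgrf1, so the test between genotypes there is not independent of that choice.

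Within the same mouse, Rasgrf1 was lower in the metastasis than in the lung tumor in 4 of 4 mice. The log2 differences were -1.68 in JHK1373, -2.64 in JHK1394, -4.83 in JHK1398 and -3.61 in JHK1399. In RPR2 mice the group difference of -2.32 ± 0.66 (SE) missed the threshold of 0.05, with a limma adjusted p of 0.073 and a 95% interval of -3.78 to -0.85. The Nfib-floxed difference was -4.69, a 38.7-fold ratio of mean levels against 21.9-fold in RPR2 mice. The RPR2 difference was past the threshold with a pseudocount of 0.1 TPM (-3.90, adjusted p = 0.0461), in a fit of the RPR2 groups alone (adjusted p = 0.0378) and when the metastasis of JHK1398 was left out (adjusted p = 0.0497). It shares its samples with the comparisons that chose the gene. The metastases also differed from lung tumors in their cells: the 6 B and plasma cell markers summed to 95.2 to 679 TPM in lung tumors and to 3.5 to 50.6 TPM in metastases. Most of that sum was Jchain, at 85.4 to 612 TPM in lung tumors and 1.56 to 43.3 TPM in metastases. Over the 10 libraries Rasgrf1 had a Pearson r of 0.75 with that sum and 0.71 with the neuroendocrine sum, and their part in the result was not tested.

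**Figure D1:**
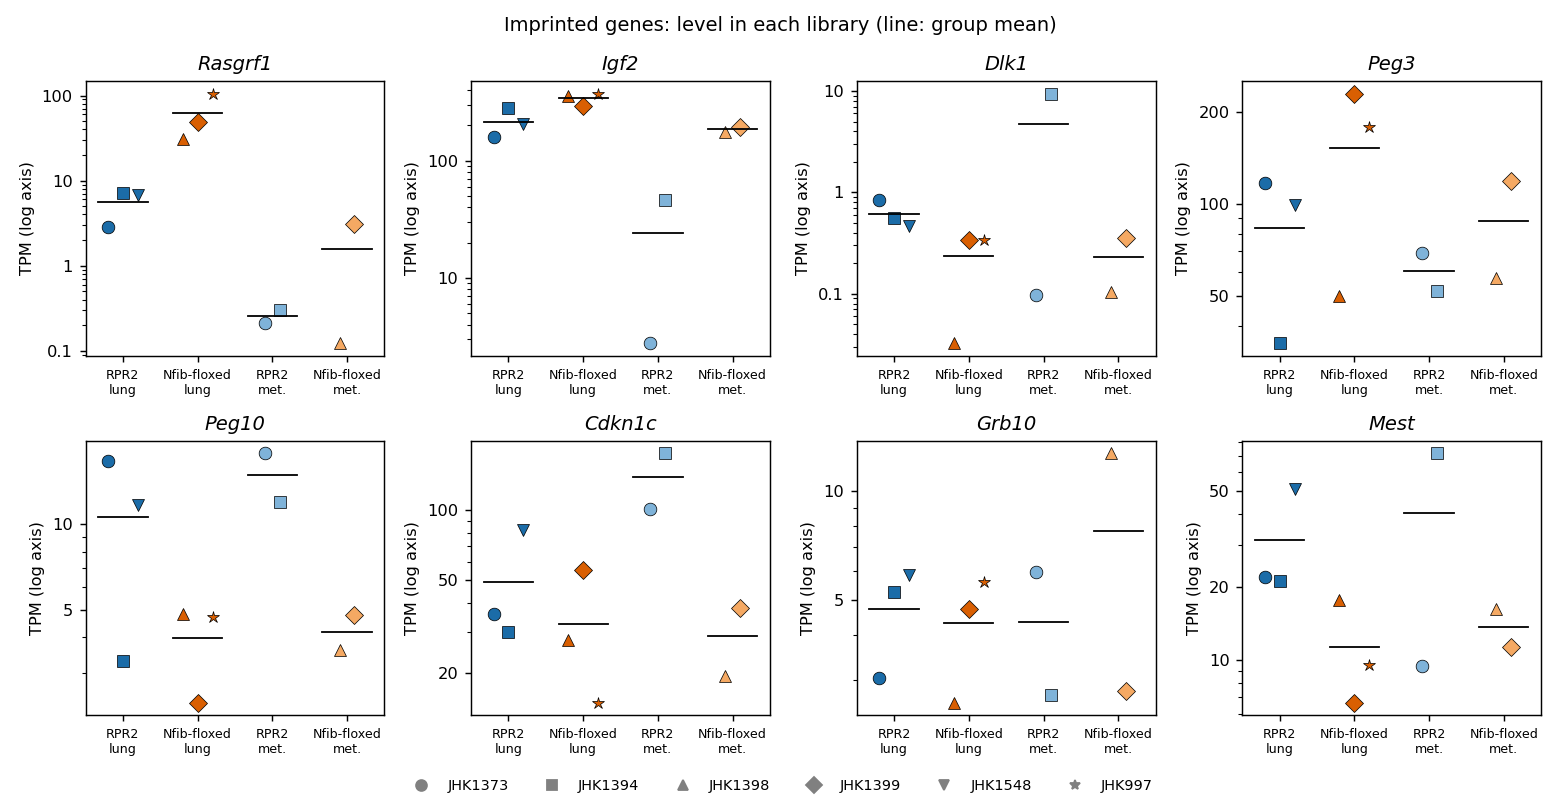
Level of each of the 8 measured imprinted genes (vertical axis, TPM on a log scale) in the 10 libraries, by genotype and tissue; each point is 1 library, its shape the mouse, and each line a group mean. Rasgrf1 stands at 30.9 to 106 TPM in Nfib-floxed lung tumors and at or under 7.09 TPM elsewhere, and Igf2 is lowest in the RPR2 metastases at 2.78 and 45.8 TPM.

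No gene among 13 tested Ras genes and other Ras exchange factors passed the test in any of the 5 comparisons, which are the 2 genotype differences, the 2 tissue differences and their interaction. In lung tumors, where limma called 0% of the 15503 genes, 1 of the 13 had an unadjusted p under 0.05. The list's median was -0.01 in lung tumors against -0.10 for all genes tested. Rras2, a Ras-related GTPase, had the smallest p from RPR2 lung tumors to RPR2 metastases, at -1.33 ± 0.41 with an adjusted p of 0.0968, where 1 of the 13 had an unadjusted p under 0.05 and 5.61% of all genes passed.

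Of 15 genes that respond to signalling from Ras to MAP kinase, 1 passed the test, in the RPR2 tissue comparison, where 5.61% of all genes passed. Dusp6, a phosphatase that turns off ERK and is itself induced by it, fell by 1.94 ± 0.38 (SE) from RPR2 lung tumors to RPR2 metastases, with a limma adjusted p of 0.0144. The test of a difference between the genotypes' tissue effects gave 1.55 for it, with an adjusted p of 0.336. Its levels were 33.8 to 63.3 TPM in the lung tumors and 11.0 and 11.9 TPM in the metastases. The call was lost without the RPR2 metastasis of JHK1373 (adjusted p = 0.106), that of JHK1394 (0.0984) or the lung tumor of JHK1394 (0.056). In lung tumors, where Rasgrf1 differed, 10 of the 15 were below 0 in Nfib-floxed mice with a median of -0.24, none passed, and 1 had an unadjusted p under 0.05.

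Around Rasgrf1, 12 of the 23 genes annotated within 500 kb were in the table and 5 could be tested. None passed in either genotype comparison. Tmed3, a carrier of secretory vesicles, was lower in RPR2 metastases than in RPR2 lung tumors by 1.42 on the log2 scale (-1.42 ± 0.26, limma adjusted p = 0.0103). Its levels were 90.3, 131 and 103 TPM in RPR2 lung tumors and 37.8 and 41.0 TPM in RPR2 metastases, while the Nfib-floxed groups lay at 92.0 to 105 TPM and 76.0 and 77.3 TPM. The ranges of the genotypes overlapped in lung tumors. The Tmed3 call was lost without the RPR2 metastasis of JHK1373 (0.0888) or JHK1394 (0.0773) and with the mouse as a fixed block (0.0909).

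Igf2 (ENSMUSG00000048583, chr7:142650766-142666816, minus strand) codes for insulin-like growth factor 2, a fetal growth factor. It was abundant in all lung tumors, at 159, 279 and 204 TPM in RPR2 mice and 354, 289 and 372 TPM in Nfib-floxed mice (JHK1398, JHK1399 and JHK997). The groups did not overlap, but the difference of 0.69 ± 0.70 (SE) did not pass the test (limma adjusted p = 0.798, 95% interval -0.85 to 2.23). In the Nfib-floxed metastases Igf2 was at 175 TPM in JHK1398 and 194 TPM in JHK1399, below every lung tumor of that genotype. In the RPR2 metastases it was low, at 2.78 TPM in JHK1373 and 45.8 TPM in JHK1394.

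Rasgrf1 had no test in 3 of the 5 comparisons. Among the tests made, Igf2 was the only measured imprinted gene of the 8 to pass, and it did so in 1 of the 5 comparisons. From RPR2 lung tumors to RPR2 metastases it fell by 3.98 ± 0.78 (SE) on the log2 scale, with a limma adjusted p of 0.0141 and a 95% interval of -5.7 to -2.26. In that comparison 1 of 8 imprinted genes passed, in the lower direction, against 5.61% of all genes tested and 3.57% that passed as lower. Of the 8, 3 had an unadjusted p under 0.05 (Igf2, Rasgrf1 and Cdkn1c), against 18.8% of all genes. Rasgrf1 shares the RPR2 lung tumors with a comparison that chose it. The mean level of Igf2 was 214 ± 60.9 TPM (SD, n = 3) in the lung tumors and 24.3 ± 30.4 TPM (SD, n = 2) in the metastases, a ratio of 8.81. The fall was seen in both mice, at -5.4 in JHK1373 and -2.58 in JHK1394. Leaving out the metastasis of JHK1373 left a difference of -2.16 and leaving out that of JHK1394 gave -5.79. Each leaves 1 metastasis, assumed to vary like the other groups, so the adjusted p of 0.0305 and 0.00101 rest on the spread of those groups. The call was lost without the club-rich lung tumor of JHK1394 (-3.77, adjusted p = 0.056), without both club-rich lung tumors (adjusted p = 0.081), with no filter on low genes (0.0515) and in a fit of these groups alone (0.0745).

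In Nfib-floxed mice the same tissue difference was -0.86 ± 0.78 (SE), with a limma adjusted p of 0.779 and a 95% interval of -2.58 to 0.86. Here 0 of the 7 genes that could be tested passed, against 0.123% of all genes, and 0 had an unadjusted p under 0.05, against 9.39%. The 2 mice stood at -1.01 and -0.57. The test of the difference between the genotypes' tissue effects gave 3.11 ± 1.10 with a limma adjusted p of 0.343, so the tissue effect was not shown to differ between genotypes. Without the RPR2 metastasis of JHK1394 that value was 4.93, with an adjusted p of 0.0116 that again takes the spread of 1 remaining metastasis from the other groups. Of the 7 genes tested for interaction 0 passed and 1, Igf2, had an unadjusted p under 0.05, where 0.581% of all genes passed and 9.68% had an unadjusted p under 0.05.

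Between the metastases, Igf2 was higher in Nfib-floxed mice by 3.80 ± 0.85 (SE), a 7.62-fold ratio of mean levels, and lay at the edge of the threshold with a limma adjusted p of 0.0507 and a 95% interval of 1.92 to 5.69. Rasgrf1, 1 of the 8 genes, shares the Nfib-floxed metastases with a comparison that chose it. Between the metastases 0 of 8 genes passed, where 2.04% of all genes passed. An unadjusted p under 0.05 was seen for 3 of 8, where 12.8% of all genes had one. Over 20 alternatives the adjusted p ran from 0.00144 to 0.318 and passed 0.05 in 5. With the mouse as a random block it was 0.0483. Without the RPR2 metastasis of JHK1373 the difference was 1.99 (adjusted p = 0.0634), and without that of JHK1394 it was 5.62 (adjusted p = 0.00144), both with 1 RPR2 metastasis whose spread is taken from the other groups. Igf2 shares its strand and most of its span with a predicted gene, Gm49394, so reads could be split between them. Summed with it, Igf2 differed by 3.82 between the metastases with a limma adjusted p of 0.045. That sum was added after seeing the data and is 1 of the 20 alternatives.

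The sums of hepatocyte and of endothelial markers moved with Igf2, in opposite directions. The hepatocyte sum was 9242 and 9614 TPM where Igf2 was low, and over the 10 libraries its r with Igf2 was -0.71. The 9 endothelial markers, none at 0, summed to 56.5 and 66.2 TPM in metastases of RPR2 mice, 366 and 1302 TPM in those of Nfib-floxed mice and 602 to 1718 TPM in lung tumors, with an r of 0.86. Nearly all of that range was Vwf, at 16.8 and 19.8 TPM in the former metastases and 332 and 1272 TPM in the latter. Pecam1, which marks endothelium in general, was at 8.21 and 8.90 TPM in the former and 8.58 and 7.80 TPM in the latter. Between the metastases 7 of the 9 endothelial markers were below 0 in Nfib-floxed mice and 2 above, with a median of -0.36. The endothelial sum thus followed Vwf and not most of its markers. The part of hepatocytes and of endothelium in the Igf2 difference was not tested. In the Nfib-floxed metastasis of JHK1399, with 2743 TPM of hepatocyte markers, Igf2 was 194 TPM, and in that of JHK1398, with 104 TPM, it was 175 TPM.

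**Figure D2:**
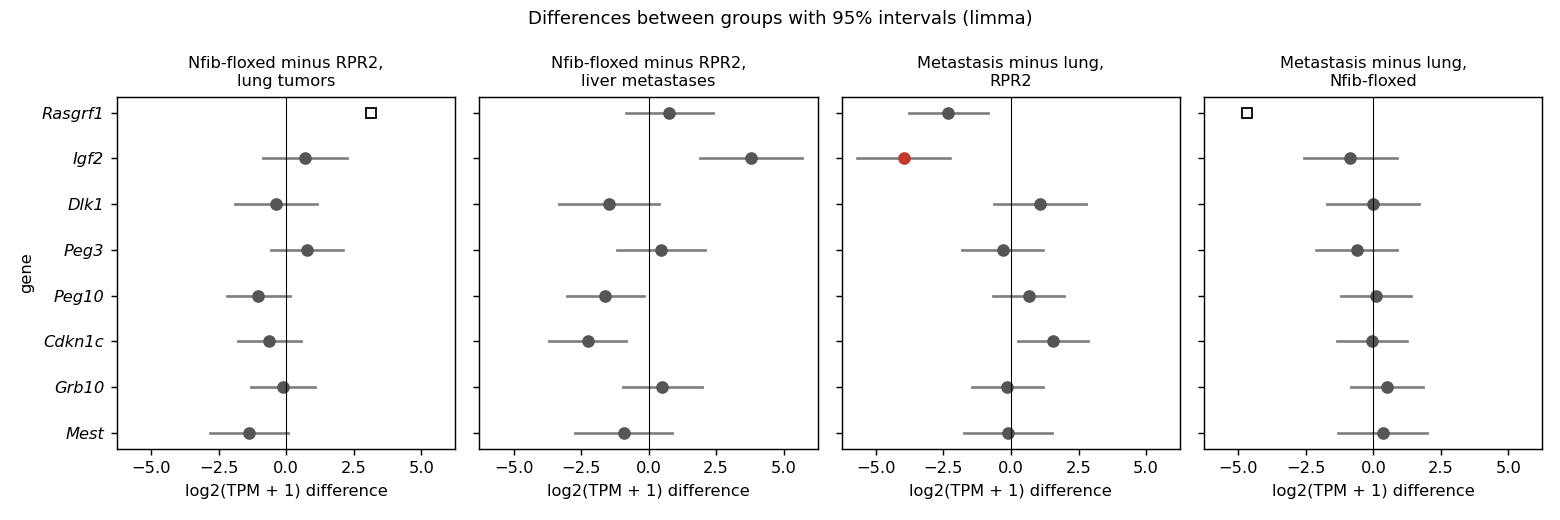
Difference in log2(TPM + 1) with its 95% interval (horizontal axis) for the 8 measured imprinted genes in the 2 genotype and 2 tissue comparisons; an open square shows Rasgrf1 without an interval where it was chosen on that contrast. Igf2 from RPR2 lung tumors to RPR2 metastases, at -3.98, shown in red, is the only tested difference past the adjusted threshold.

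In RPR2 mice 4 other genes of the IGF system passed the test, where 5.61% of all genes passed. Of 14 tested ligands, receptors, binding proteins and RNA-binding proteins other than Igf2, 2 rose and 2 fell from lung tumor to metastasis by the limma test, where 2.04% of all genes rose and 3.57% fell. Igfbp1, a binding protein that the liver secretes, rose by 4.35 ± 1.03 (adjusted p = 0.0339), from 0.498 to 1.13 TPM to 87.0 and 14.2 TPM. Igfbp4, which holds IGF away from its receptor, rose by 1.75 ± 0.43 (adjusted p = 0.0395). Igfbp3, the main carrier of IGF in plasma, fell by 1.90 ± 0.42 (adjusted p = 0.0267), and Igfbp5 fell by 3.41 ± 0.85 (adjusted p = 0.0425), from 209 to 695 TPM to 19.2 and 42.7 TPM. Hepatocyte markers rose in the same comparison (14 of 15 passed), and their part in these 4 changes was not tested. Over 21 alternatives the call was kept in 13 for Igfbp1, 15 for Igfbp4, 15 for Igfbp3 and 8 for Igfbp5. Not every loss is named below. All 4 calls were lost when either RPR2 metastasis or the RPR2 lung tumor of JHK1373 or JHK1548 was left out, with adjusted p from 0.0544 to 0.302. Igfbp1 and Igfbp5 were also lost without the RPR2 lung tumor of JHK1394 (0.107 and 0.14), and Igfbp5 without the Nfib-floxed lung tumor of JHK1398 (0.051) or JHK997 (0.0551). With the mouse as a fixed block the adjusted p was 0.155 for Igfbp4, 0.123 for Igfbp3 and 0.0813 for Igfbp5.

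Between the metastases, 1 of the 14 was higher and 1 lower, where 1.13% of all genes were called higher and 0.91% lower. Those shares stand for 175 and 141 genes, which became 153 and 40 with a filter of 5 TPM, 207 and 70 with a pseudocount of 0.1 TPM, 136 and 239 with a pseudocount of 5 TPM, and 127 and 240 with no filter. Igf2bp2, which binds the Igf2 message and other messages, was higher in Nfib-floxed mice by 3.27 ± 0.68 (limma adjusted p = 0.0385). Its levels were 20.0 and 12.6 TPM against 1.10 and 0.466 TPM in the RPR2 metastases. Igfbp4 was lower by 2.26 on the log2 scale (-2.26 ± 0.47, adjusted p = 0.0385), at 7.44 and 16.4 TPM against 55.5 and 58.4 TPM. The receptors, named here after their values were seen, did not pass: Igf1r was at 10.3 and 13.4 TPM against 6.59 and 3.92 TPM, and Igf2r, itself maternally expressed, at 22.6 and 34.6 TPM against 14.0 and 18.98 TPM. Over 20 alternatives the Igf2bp2 call was kept in 7 and the Igfbp4 call in 11, and not every loss is named below. A fit of the metastases alone called 0 genes. The Igf2bp2 call was lost without any 1 of the 4 metastases (adjusted p 0.0839 to 0.226) and without the lung tumor of JHK1399, JHK1548 or JHK997 (0.0507 to 0.0617). The Igfbp4 call was lost without the metastasis of JHK1373, JHK1394 or JHK1398 (0.15 to 0.208) and without the lung tumor of JHK1373, JHK1399, JHK1548 or JHK997 (0.0507 to 0.0617).

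Igf2 and Cdkn1c lie in the imprinted region of distal chromosome 7, with Th, Kcnq1 and Osbpl5 along the same arm. From Igf2 through Th at chr7:142892752-142931128 and Kcnq1 at chr7:143106362-143427042 (plus strand), the order runs to Cdkn1c at chr7:143458339-143461050 and Osbpl5 at chr7:143688762-143756985 (minus strand). Kcnq1 codes for a potassium channel and is maternally expressed in the embryo. It fell from RPR2 lung tumors to RPR2 metastases by 3.77 ± 0.54 (SE), with a limma adjusted p of 0.00395, and passed the test in 21 of 21 alternatives. Its levels were 17.1, 33.5 and 13.8 TPM in RPR2 lung tumors and 0.418 and 0.669 TPM in RPR2 metastases. In Nfib-floxed mice it was at 14.1, 22.8 and 25.5 TPM in lung tumors and 4.86 and 14.8 TPM in metastases.

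Osbpl5, a lipid-transfer protein maternally expressed in placenta, fell in RPR2 mice by 2.90 ± 0.45 (limma adjusted p = 0.00538). It went from 15.3, 25.5 and 11.3 TPM to 1.15 and 1.56 TPM, and the call was lost only without the metastasis of JHK1373 (adjusted p = 0.0503). Gm49394, which overlaps Igf2, fell by 3.00 ± 0.61 (adjusted p = 0.0166). Between the metastases Kcnq1 was higher in Nfib-floxed mice by 2.65 ± 0.59 (adjusted p = 0.0489), Gm49394 by 3.20 ± 0.67 (0.0385), and Osbpl5 differed by 2.01 (0.0691). The genotype call was kept in 8 of 20 alternatives for Kcnq1 and 8 of 19 for Gm49394, and not every loss is named below. A fit of the metastases alone called 0 genes. The Kcnq1 genotype call was lost without the metastasis of JHK1373 (0.195), JHK1394 (0.196) or JHK1399 (0.259), and without 5 of the lung tumors, those of JHK1373, JHK1394, JHK1548, JHK1399 and JHK997 (0.0536 to 0.0802). The Gm49394 genotype call was lost without any 1 of the 4 metastases (0.0552 to 0.208) or the lung tumor of JHK1373, JHK1394, JHK1548 or JHK1399 (0.0558 to 0.065), and its tissue call without the RPR2 metastasis of JHK1373 (0.171) or the RPR2 lung tumor of JHK1394 (0.0527) or JHK1548 (0.0568). Th, which codes for tyrosine hydroxylase and is shown for its place on the chromosome, did not pass and varied within groups, from 0.580 to 15.3 TPM in RPR2 lung tumors and 7.61 to 114 TPM in Nfib-floxed ones.

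**Figure D3:**
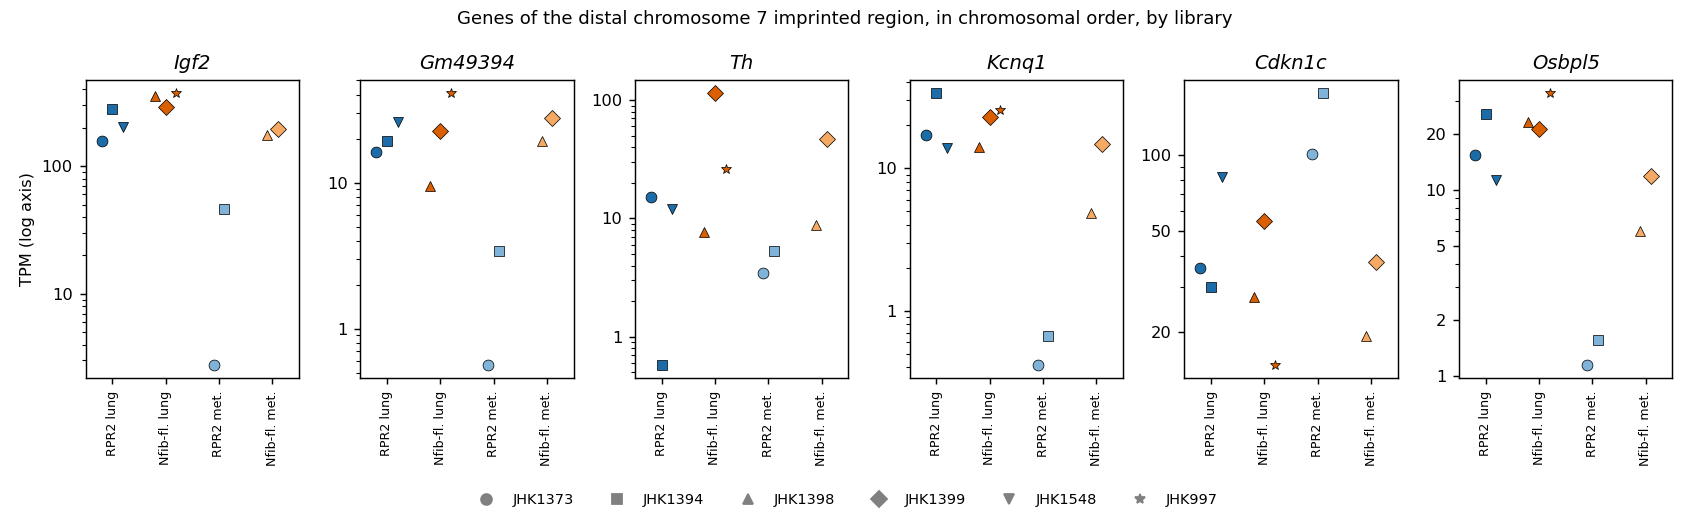
Level (vertical axis, TPM on a log scale) of Igf2, Gm49394, Th, Kcnq1, Cdkn1c and Osbpl5, in their order along distal chromosome 7, in the 10 libraries by group; each point is 1 library and its shape the mouse. In the RPR2 metastases Igf2, Gm49394, Kcnq1 and Osbpl5 are at their lowest while Cdkn1c is at its highest, at 101 and 176 TPM.

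Cdkn1c (ENSMUSG00000037664, minus strand) codes for the cyclin-dependent kinase inhibitor p57, a brake on the cell cycle and on fetal growth. It lies between Kcnq1 and Osbpl5, and in RPR2 mice its values went the other way. In JHK1398 and JHK1399, which are Nfib-floxed, Cdkn1c, Kcnq1 and Osbpl5 were all lower in the metastasis than in the lung tumor. In RPR2 metastases Cdkn1c was at 101 TPM in JHK1373 and 176 TPM in JHK1394, above every other library. RPR2 lung tumors stood at 35.7, 30.0 and 81.9 TPM, Nfib-floxed lung tumors at 27.6, 55.1 and 14.9 TPM, and Nfib-floxed metastases at 19.4 and 38.0 TPM. The ratio of mean levels was 2.82 between RPR2 metastases and RPR2 lung tumors and 4.83 between the metastases of RPR2 and Nfib-floxed mice.

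Neither Cdkn1c difference passed the test over all genes. The tissue difference in RPR2 mice was 1.56 ± 0.59 (SE), with a limma adjusted p of 0.171 and a 95% interval of 0.27 to 2.86. The genotype difference in metastases was -2.25 ± 0.64, with an adjusted p of 0.115 and an interval of -3.67 to -0.84. Within mice the metastasis differed from the lung tumor by 1.48 in JHK1373 and 2.51 in JHK1394, and by -0.49 in JHK1398 and -0.52 in JHK1399. Over the 10 libraries Cdkn1c had an r of 0.84 with the hepatocyte sum, whose part was not tested. In the Nfib-floxed metastasis of JHK1399, with 2743 TPM of hepatocyte markers, Cdkn1c was 38.0 TPM, within the range of the lung tumors.

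Of the 6 tested CDK inhibitors other than Cdkn1c, Cdkn2b, an inhibitor of the kinases that act on the retinoblastoma protein, fell from RPR2 lung tumors to RPR2 metastases by 2.55 ± 0.52 (limma adjusted p = 0.0168), where 3.57% of all genes fell. Its levels were 15.6, 31.6 and 21.0 TPM in the lung tumors and 3.16 and 2.66 TPM in the metastases. The other 5 did not pass in any comparison. The call was lost without the RPR2 metastasis of JHK1373 (adjusted p = 0.0948) or JHK1394 (0.13) or the RPR2 lung tumor of JHK1394 (0.0649), and with the mouse as a fixed block (0.107). All 6 were below 0 for genotype in lung tumors, with a median of -0.54 against -0.10 for all genes, and 0 of the 6 had an unadjusted p under 0.05, against 7.93% of all genes.

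Grb10 (ENSMUSG00000020176, chr11:11930508-12038683, minus strand) codes for an adaptor that binds the insulin and IGF receptors and restrains their signal. It was low in all groups, and the groups overlapped in each comparison. RPR2 lung tumors stood at 3.04, 5.25 and 5.87 TPM, Nfib-floxed lung tumors at 2.59, 4.71 and 5.60 TPM, and RPR2 metastases at 5.98 and 2.72 TPM. The highest value, 12.7 TPM, was the Nfib-floxed metastasis of JHK1398, and that of JHK1399 was 2.79 TPM. The difference between genotypes in metastases was 0.50 ± 0.66 (limma adjusted p = 0.886, 95% interval -0.96 to 1.96). In each of the 5 comparisons the sign of the Grb10 difference changed when 1 library was left out. Cobl, an actin regulator that neighbours Grb10, fell in RPR2 mice by 1.78 ± 0.38 (adjusted p = 0.0213), from 14.1 to 22.8 TPM to 4.19 and 4.31 TPM. The Cobl call was kept in 13 of 21 alternatives, and not every loss is named below. That call was lost without the RPR2 metastasis of JHK1373 (0.136) or JHK1394 (0.133) or the RPR2 lung tumor of JHK1373 (0.0583) or JHK1394 (0.0775), and with quantile normalization (0.0591), median centring (0.0536) or the mouse as a fixed block (0.0886).

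Dlk1 (ENSMUSG00000040856, chr12:109452823-109463336, plus strand) codes for a membrane protein related to the ligands of Notch that keeps precursor cells undifferentiated and is found in neuroendocrine tumors. It was under 1 TPM in 9 of 10 libraries. RPR2 lung tumors were at 0.831, 0.555 and 0.464 TPM, Nfib-floxed lung tumors at 0.0323, 0.338 and 0.336 TPM, and Nfib-floxed metastases at 0.103 and 0.352 TPM. Of the RPR2 metastases, JHK1373 was at 0.0967 TPM and JHK1394 at 9.44 TPM. That library also had the highest Nfib, at 643 TPM. The lung tumors did not overlap, but their difference of -0.39 ± 0.69 did not pass (limma adjusted p = 0.895). The difference between RPR2 tissues was 1.07 ± 0.77 (SE) and that between the metastases was -1.47 ± 0.84 (SE). No p is given for these, since the gene entered the test through the metastasis of JHK1394 that they rest on. Without that metastasis the differences were -0.55 and 0.16.

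Mest (ENSMUSG00000051855, chr6:30723547-30748465, plus strand) codes for an enzyme of the hydrolase fold that is abundant in the embryonic mesoderm. In lung tumors it was at 22.1, 21.2 and 50.9 TPM in RPR2 mice and 17.7, 6.64 and 9.52 TPM in Nfib-floxed mice. The groups did not overlap, yet the difference of -1.38 ± 0.66 (SE) did not pass (limma adjusted p = 0.631, 95% interval -2.84 to 0.08). RPR2 metastases were far apart, at 9.47 TPM in JHK1373 and 71.8 TPM in JHK1394, around the Nfib-floxed ones at 16.2 and 11.3 TPM. Copg2, at chr6:30747554-30896794 on the opposite strand, overlaps only the last part of Mest. No source used here says whether the libraries kept strand.

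Peg3 (ENSMUSG00000002265, chr7:6703892-6730431, minus strand) codes for a zinc finger protein that binds DNA and acts in maternal behaviour and cell death. It was expressed in all libraries, at 117, 35.0 and 99.2 TPM in RPR2 lung tumors and 50.1, 231 and 179 TPM in Nfib-floxed ones. The metastases were at 68.9 and 51.7 TPM in RPR2 mice and 57.1 and 120 TPM in Nfib-floxed mice. The lowest value of each lung group, 35.0 and 50.1 TPM, was the club-rich tumor. The difference between the lung tumors was 0.77 ± 0.60 (SE, limma adjusted p = 0.733, 95% interval -0.56 to 2.11), and the groups overlapped. Its r with the neuroendocrine sum was 0.78 over the 10 libraries.

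Peg10 (ENSMUSG00000092035, chr6:4747306-4760517, plus strand) derives from a retrotransposon, and its protein is needed for the placenta. It was at 16.7, 3.30 and 11.7 TPM in RPR2 lung tumors and 4.83, 2.34 and 4.71 TPM in Nfib-floxed ones. In metastases it was at 17.8 and 11.9 TPM in RPR2 mice and 3.59 and 4.78 TPM in Nfib-floxed mice. The Nfib-floxed metastases lay below the RPR2 metastases without overlap, by -1.60 ± 0.65 (SE), with a limma adjusted p of 0.307 and a 95% interval of -3.03 to -0.16. In lung tumors the difference was -1.04 ± 0.53 (adjusted p = 0.632), and the club-rich RPR2 lung tumor of JHK1394 lay among the Nfib-floxed ones.

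As a set, the 8 genes did not move together. In lung tumors 3 were above 0 in Nfib-floxed mice and 5 below, with a median of -0.26 against -0.10 over all genes tested. Apart from Rasgrf1, which was chosen on that difference, the groups of 3 of the other 7 did not overlap there, those of Igf2, higher, and of Dlk1 and Mest, lower, where 14.5% of all genes did not overlap. Of the 7 tested in lung tumors 0 passed and 0 had an unadjusted p under 0.05, where 0% of all genes passed and 7.93% had such a p. In metastases 4 were above 0 and 4 below, with a median of -0.23 against 0, and 3 did not overlap, against 45.8% of all genes. From lung tumor to metastasis 3 were above 0 and 5 below in RPR2 mice (median -0.12 against -0.15) and also in Nfib-floxed mice (median -0.03 against -0.05), though Grb10 and Mest turned positive in RPR2 mice with quantile normalization or median centring, as did Dlk1 with both and Cdkn1c with median centring in Nfib-floxed mice. The tissues of 3 of the 8 in RPR2 mice, Cdkn1c higher and Igf2 and Rasgrf1 lower, did not overlap, against 46.1% of all genes. For Rasgrf1 the RPR2 lung tumors, and in the comparison of metastases the Nfib-floxed ones, also belong to comparisons that chose it. In Nfib-floxed mice, where Rasgrf1 was chosen on the difference, 1 of the other 7, Igf2, was lower without overlap, against 22.5%. The number of RPR2 calls over all genes split into 316 higher and 553 lower, which became 407 and 408 with quantile normalization and 394 and 382 with median centring.

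**Figure D4:**
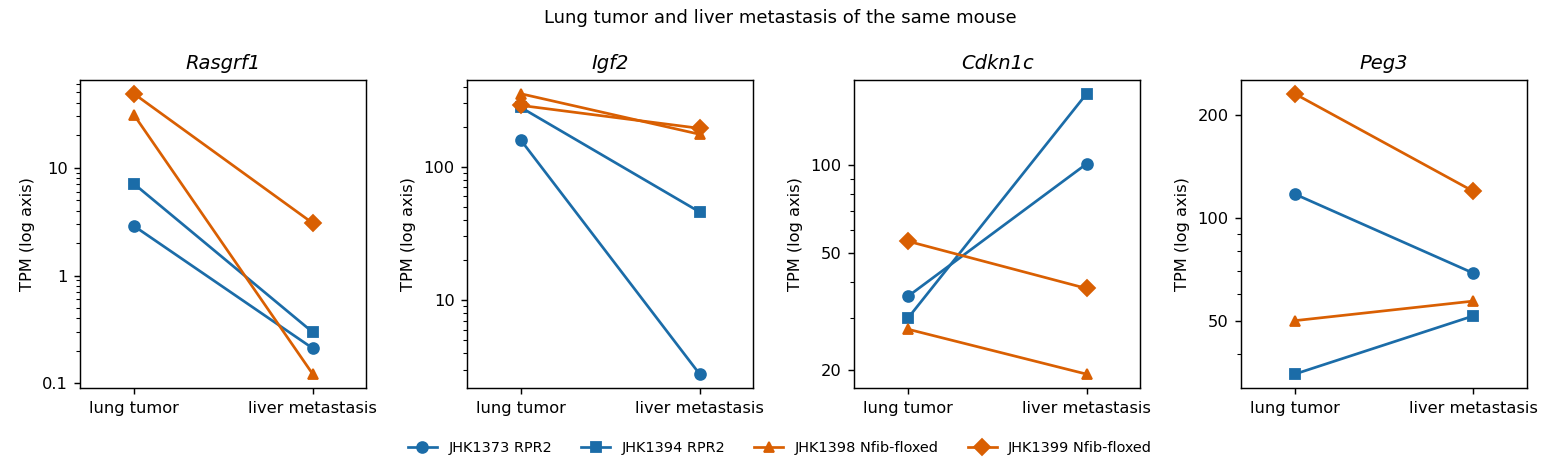
Level (vertical axis, TPM on a log scale) of Rasgrf1, Igf2, Cdkn1c and Peg3 in the lung tumor and the liver metastasis of the same mouse, joined by a line for each of 4 mice and coloured by genotype. Rasgrf1 and Igf2 are lower in the metastasis of all 4 mice, Cdkn1c is higher there in both RPR2 mice and lower in both Nfib-floxed mice, and Peg3 has no common direction.

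In the comparison within mice, Igf2 was lower in the metastasis of all 4 mice. So was Rasgrf1, for which the 2 Nfib-floxed pairs and the RPR2 lung tumors belong to the values that chose it. Igf2 differed by -5.4 and -2.58 in RPR2 mice and by -1.01 and -0.57 in Nfib-floxed mice. Peg3 stood at -0.76, 0.55, 0.19 and -0.94 in JHK1373, JHK1394, JHK1398 and JHK1399. Mest stood at -1.14, 1.71, -0.12 and 0.68, and Grb10 at 0.79, -0.75, 1.94 and -0.59. These genes thus differed in sign between mice of 1 genotype.

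Across the 10 libraries the genes had no shared profile. The pairs with the strongest Pearson r on the log2 scale were Dlk1 with Mest at 0.70, Igf2 with Peg10 at -0.67, Rasgrf1 with Igf2 at 0.65, Igf2 with Cdkn1c at -0.64 and Dlk1 with Cdkn1c at 0.62. Igf2 and Cdkn1c, which share a region, were thus inversely ordered. Among all genes tested, those closest to Rasgrf1 were Fam214b (r = 0.96), Rps4l (0.95) and Ogn (0.95). Those closest to Igf2 were Tmem106c (0.97), Rnf166 (0.96) and Spns2 (0.96). Cdkn1c was closest to Ngp (0.97), Cd1d1 (0.94) and Phldb1 (0.92), and Dlk1 to Lgi1 (0.98), Sertm1 (0.98) and Serpina4-ps1 (0.97). Peg3 was closest to Ncor1 (0.96), Nfat5 (0.95) and Man2a2 (0.93), Peg10 to Gpatch3 (0.96), Phc2 (0.94) and Phc1 (0.91), Grb10 to Pfkp (0.86), Sv2c (0.86) and Tsacc (0.84), and Mest to Tll1 (0.92), Nfe2l3 (0.92) and Fam118b (0.90). These are descriptions over 10 libraries that share groups and tumor content, taken as the highest of 15503 genes. Dlk1 was at 1 TPM or more only in the RPR2 metastasis of JHK1394, so its r values rest largely on that library.

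Of 58 other imprinted genes listed, 49 were in the table and 32 were tested, 16 paternally and 16 maternally expressed. In lung tumors 0 of 32 passed the limma test and 2 had an unadjusted p under 0.05, where the shares of all genes were 0% and 7.93%. In Nfib-floxed mice 0 of 32 passed between tissues and 6 had such a p, where the shares were 0.123% and 9.39%. In RPR2 mice 1 rose and 3 fell from lung tumor to metastasis, where 2.04% of all genes rose and 3.57% fell. Slc38a4, an amino acid transporter that is paternally expressed and abundant in liver, rose by 3.03 ± 0.69 (adjusted p = 0.0278), from 0.529, 2.99 and 0.890 TPM to 26.3 and 11.5 TPM. The 3 that fell, Kcnq1, Osbpl5 and Cobl, are on the maternally expressed list, whose median was -0.31 against -0.15 for all genes. Hepatocyte markers rose in the same comparison, and their part was not tested. The Slc38a4 call was kept in 13 of 20 alternatives, and not every loss is named below. The Slc38a4 call was lost without either RPR2 metastasis (0.232 and 0.0796) or the RPR2 lung tumor of JHK1373 (0.0824) or JHK1548 (0.0795), and with the mouse as a fixed block (0.12).

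Between the metastases 1 of the 32 passed, Kcnq1, and 10 had an unadjusted p under 0.05, where the shares of all genes were 2.04% and 12.8%. Nnat, a paternally expressed membrane protein of neural and endocrine cells that is named after its values were seen, was at 3247 and 3133 TPM in the Nfib-floxed metastases and 601 and 899 TPM in the RPR2 ones, a difference of 2.12 ± 0.48 that just missed the threshold (limma adjusted p = 0.0524). It was also high in every lung tumor, at 575 to 2024 TPM. Of 12 tested genes that set or keep imprints, Trim28, a corepressor that protects imprinted methylation in the embryo, rose from RPR2 lung tumors to RPR2 metastases by 1.02 ± 0.26 (adjusted p = 0.0476), where 2.04% of all genes rose. Its levels were 323, 235 and 330 TPM in the lung tumors and 578 and 613 TPM in the metastases, and the call was lost without any 1 of 9 libraries (0.0512 to 0.26), the Nfib-floxed lung tumor of JHK1398 being the exception. With the mouse as a fixed block the adjusted p was 0.178. Over 21 alternatives the Trim28 call was kept in 8.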

How the data were processed

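RNA was measured in 10 libraries of 6 mice, in 4 groups set by genotype and tissue in the labels. Per the labels' protocols, polyA RNA of macrodissected, frozen tumors was made into NEBNext Ultra II libraries. The tools named in the submitters' processing notes are bcl2fastq 2.20, Salmon 0.12.0 and R 4.1.0, with build GRCm38; the annotation, the strand setting and other options were not given in the sources used here. Values were deposited as TPM, transcript abundances already scaled for length and to the same total in each library. Depth cannot be had from TPM, so it is unknown and intervals for counting error could not be made. Salmon shares reads among overlapping transcripts by estimate.

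Of 35288 genes, the 15503 whose mean reached 1 TPM were tested on log2(TPM + 1) by limma 3.58.1 (R 4.3.3), a scale that understates the change of low genes. The model had 4 groups and 5 two-sided contrasts, with 6 residual and 4.56 prior degrees of freedom; p-values were Benjamini-Hochberg adjusted over all 15503 genes, with a threshold of 0.05. Fold ratios are of mean TPM. Gene positions are from GENCODE annotation of GRCm38, which held 35028 of the table's identifiers, and promoter sequences from RefSeq; tables were handled in Python 3.11.15.

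The imprinted genes and the gene lists were chosen with earlier results of these data known. All measured imprinted genes are named, with the 3 genes most correlated with each (predicted genes passed over), the list genes and neighbours within 500 kb that passed, and, where none of a list passed, the 2 with the smallest p; any other is said to be named after its values were seen. Lung tumor and metastasis of 4 mice are paired by mouse. The correlations of their deviations from group means were -0.023, -0.008, 0.043 and 0.049. The alternatives were other pseudocounts (0.1 and 5 TPM), filters and scalings, the mouse as a random or fixed block, the compared groups alone, each library left out, and both club-rich lung tumors left out. Summing Igf2 with Gm49394 was added after seeing the data. The linear model was tested on simulated data. Some genes that these rules would name are not reported here.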

Additional observations from a re-analysis of the deposited data

How the results depend on the processing

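Igf2 kept its direction in the RPR2 tissue comparison in 21 of 21 alternatives and its call in 17, with differences from -5.79 to -2.16. The number of measured imprinted genes past the threshold there was 1. It became 2, Igf2 and Rasgrf1, with a pseudocount of 0.1 TPM. It was 0 with no filter and 0 without the lung tumors of JHK1394 and JHK1398. Leaving out 1 lung tumor gave 0 to 1. Without the RPR2 metastasis of JHK1373, Dlk1 differed by 2.7. That value rests on the metastasis of JHK1394, through which the gene entered the test. Fitted alone, the RPR2 groups also gave 1, but that was Rasgrf1 (limma adjusted p = 0.0378) and not Igf2. Rasgrf1 shares the RPR2 lung tumors with a comparison that chose it, so its calls here are not independent of that choice. Between the metastases the number was 0, and 1, Igf2, with a pseudocount of 5 TPM, with quantile normalization and with Igf2 summed with Gm49394. With 1 RPR2 metastasis left out only differences are given. Igf2 differed by 1.99 without that of JHK1373 and 5.62 without that of JHK1394, and Dlk1 by -3.1 and 0.16. Dlk1 entered the test through the metastasis of JHK1394. Where a metastasis is left out, the 1 that remains in its group is assumed to vary like the other groups. The interaction gave 0 to 1 when 1 library was left out. In lung tumors and between tissues in Nfib-floxed mice the number was 0 throughout. Rasgrf1 had no test in these comparisons or in the interaction.

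With the mouse as a random replicate block the number between the metastases was 1, Igf2, and that block changed no other call of the 8 genes. Over all genes the mouse as a fixed block gave 523 calls in RPR2 mice, 6 in Nfib-floxed mice and 11 for the interaction.

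Of 811 alternative values of the 8 genes, 42 changed sign, none of them of a called difference. With quantile normalization Grb10 and Mest became 0.19 and 0.11 between RPR2 tissues and Dlk1 0.28 between Nfib-floxed tissues. With median centring Grb10 became 0.11 and Mest 0.13 between RPR2 tissues, and Cdkn1c 0.011 and Dlk1 0.066 between Nfib-floxed tissues. With the fixed block Grb10 became 0.020 and Mest 0.29 between RPR2 tissues, Dlk1 0.056 between Nfib-floxed tissues, and Mest -0.0049 for the interaction. Dlk1 was 0.047 between Nfib-floxed tissues at a pseudocount of 0.1 TPM. Without both club-rich lung tumors Grb10 was 0.22 in lung tumors and Peg10 0.18 for the interaction.

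Leaving out 1 library, differences between metastases ran from -0.063 to 0.99 for Peg3, -0.43 to 1.43 for Grb10, -0.16 to 1.69 for Rasgrf1, -3.1 to 0.16 for Dlk1 and -2.32 to 0.47 for Mest. Between RPR2 tissues they ran from -0.84 to 0.017 for Peg3, -0.58 to 0.32 for Grb10, -0.55 to 2.7 for Dlk1 and -1.51 to 1.28 for Mest. Between Nfib-floxed tissues they ran from -0.44 to 1.42 for Grb10, -0.53 to 0.41 for Cdkn1c, -0.15 to 0.14 for Dlk1 and -0.16 to 0.26 for Peg10. Grb10 in lung tumors ran from -0.35 to 0.14. For the interaction the ranges were -0.97 to 0.22 for Peg3, -0.31 to 1.55 for Grb10, -2.7 to 0.55 for Dlk1, -0.94 to 1.85 for Mest and -0.98 to 0.041 for Peg10.

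Calls over all genes moved by more than 1.5 times in several settings. Between metastases 316 became 193 with a filter of 5 TPM and 0 for those groups alone. In Nfib-floxed mice 19 became 40 and 1 with pseudocounts of 0.1 and 5 TPM, 2 with no filter, 9 with median centring, 0 for the groups alone and 1 without the club-rich lung tumors, which also left 24 of 90 for the interaction. Leaving out 1 library gave 127 to 388, 272 to 1166, 0 to 35 and 25 to 137 calls in the metastasis, RPR2 tissue, Nfib-floxed tissue and interaction comparisons. Dlk1 and Slc38a4 have no value under the 5 TPM filter. The causes of these changes were not tested. Depth is unknown, and groups of 2 or 3 mice limit every interval.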
